A study of Arabidopsis thaliana with 6 samples.

Results

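The NAC genes of Arabidopsis, named after NAM, ATAF and CUC, encode one of the largest families of plant transcription factors. The members described here are the 94 loci, of 32627 measured, whose array annotation carries a symbol of the form NAC or ANAC with a 3-digit number, read in either case. Of 100 such loci, 6 were set aside: the root cap regulators FEZ, SMB, BRN1 and BRN2 and the vessel regulators VND6 and VND7. The set still holds VND1 to VND5 and the fibre wall regulators SND1, NST1 and NST2, so it is not free of xylem genes. Read in capitals only, the same rule gives 46 loci.

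RNA came from roots of Arabidopsis seedlings of 2 lines, on 6 one-colour arrays. The OBP4 group had 3 arrays of pER8::OBP4 roots and the control group 3 arrays of pER8::GFP roots. pER8 is an estradiol-inducible vector, in which a synthetic constitutive promoter drives the hormone-responsive activator that switches the transgene on. Seedlings of both lines grew for 5 days and then stood for 8 h on medium with 10 µM estradiol, under 16 h of light, so the controls carry the vector and the hormone too. OBP4 is a DOF zinc finger transcription factor. The comparison asks which root transcripts differ after its induction, in a study of root growth, cell elongation and callus. Replicates were grown on separate plates as independent experiments, and the number of independent transgenic lines is not stated. No arrays without estradiol were analysed here, so differences between the lines before induction and the effect of induction cannot be told apart.

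A NAC protein carries a conserved DNA-binding domain at its start and a variable activating region after it. Members of the family direct organ boundaries, lateral roots, vessel and fibre walls, responses to drought, wounding and pathogens, and the death of ageing leaves. Some are held at a membrane by a tail segment and reach the nucleus only after they are cut free. Values below are log2 RMA values, in which a difference of 1 is a doubling, and differences are OBP4 minus control with the standard error (SE) of the limma fit. A gene is called higher or lower where limma's p, adjusted over all loci by Benjamini-Hochberg, is under 0.05.

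OBP4 itself, the induced gene, had 15.73, 15.83 and 15.86 in OBP4 roots, against 14.37, 14.78 and 14.48 in control roots. The difference was 1.27 ± 0.12 (SE), with limma's adjusted p = 0.00279. The OBP4 arrays lay near the top of the scale, so the size of the induction is not known exactly. Array medians lay between 11.60 and 11.65, and arrays correlated across loci at 0.982 to 0.992 within OBP4 roots, 0.989 to 0.995 within control roots and 0.970 to 0.985 between the groups. Of 10 root markers, 0 lay under 8 in any array, 4 fell, 0 rose and 6 did not pass. Of all loci 13.7% were called and 8.48% were lower, so these root markers fell more often than loci at large. Those that fell were RHD6 (-0.76), COBL9 (-1.12), GL2 (-0.74) and the locus AT5G47450 (-0.52). The cause of these falls was not tested. The 20 photosynthesis genes, markers of green shoot tissue, had medians of 15.36, 11.49 and 13.66 in OBP4 roots, against 12.37, 11.92 and 13.27 in control roots. Their level thus differed between arrays of the same group, and 0 of 20 passed limma's test (0 at an unadjusted p under 0.05). The differences nevertheless leaned one way: 19 of 20 were above 0, with a median of 0.85. Their part in the NAC results was not tested beyond the fit with their mean as a covariate, which called 9 NAC genes higher and 7 lower (17.0%, against 11.7% of all loci in that fit). All 6 arrays carry the same slide identifier in the file headers, with control arrays at the lower positions, so position on the slide and line cannot be told apart.

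Of the 94 NAC genes, 11 were higher and 9 lower in OBP4 roots, and 74 did not pass. The called share was 21.3%, against 13.7% of all loci (11.7% against 5.23% for higher calls, 9.6% against 8.48% for lower ones). Among the 46 loci that the rule gives in capitals only, 3 were higher (6.5%, near the 5.23% of all loci) and 5 lower (10.9%). The median difference of the NAC genes was -0.01, and that of all loci 0.02. Called and different by at least 1 on the log2 scale were 8 NAC genes (5 higher, 3 lower), or 8.5%, against 4.78% of all loci. Arrays of the groups did not overlap at 46 NAC genes (48.9%), against 36.9% of all loci. OBP4 arrays lay above control arrays at 20 of the 94 genes (at 18% of all loci), and below them at 26 of the 94 (at 18.9% of all loci). Without single arrays the counts of higher and lower genes were 8 and 7 (OBP4 replicate 1), 5 and 6 (OBP4 2), 6 and 6 (OBP4 3), 5 and 4 (control 1), 6 and 5 (control 2) and 6 and 5 (control 3). The called share of the NAC genes in those 6 fits was 16.0%, 11.7%, 12.8%, 9.6%, 11.7% and 11.7%, where that of all loci was 10.3%, 8.28%, 8.93%, 8.18%, 8.92% and 7.55%.

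**Figure D1:**
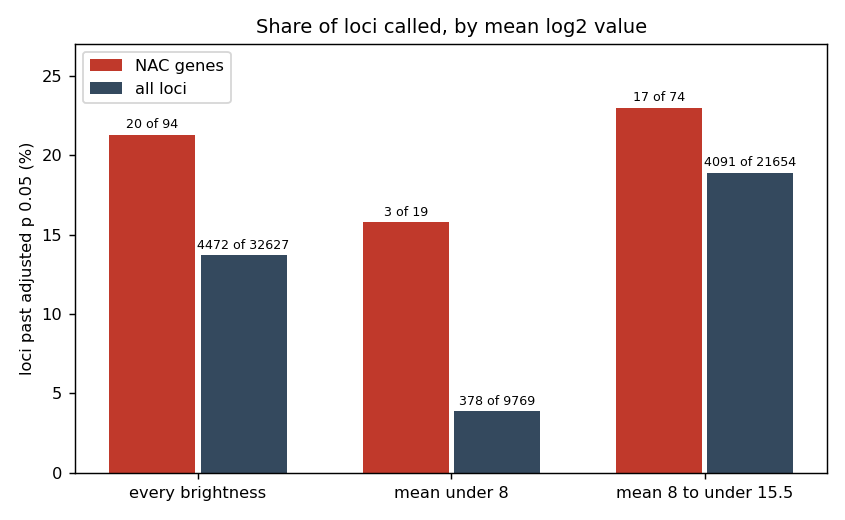
Percent of loci past adjusted p 0.05 (y axis) for NAC genes (red, left bar of each pair) and all loci (grey, right bar), for every brightness and for loci with a mean log2 value under 8 or in the middle range (x axis). Above the bars stand the counts: 20 of 94 NAC genes against 4472 of 32627 loci, with the shares closer to each other in the middle range (17 of 74 against 4091 of 21654) than among dim loci (3 of 19 against 378 of 9769).

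Brightness matters to how often a locus is called, so the shares were also set side by side within it. Of 19 dim NAC genes, with a mean under 8 over all arrays, 3 were called (15.8%), against 3.9% of dim loci. In the middle range 17 of 74 were called (23.0%), against 18.9% of loci. NAC032 was the only member among the brightest loci, near the top of the scale, of which 0.2% were called. The 3 dim called genes are NAC036, NAC071 and NAC019, whose mean was under 8 in control roots and above 8 in OBP4 roots.

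**Figure D2:**
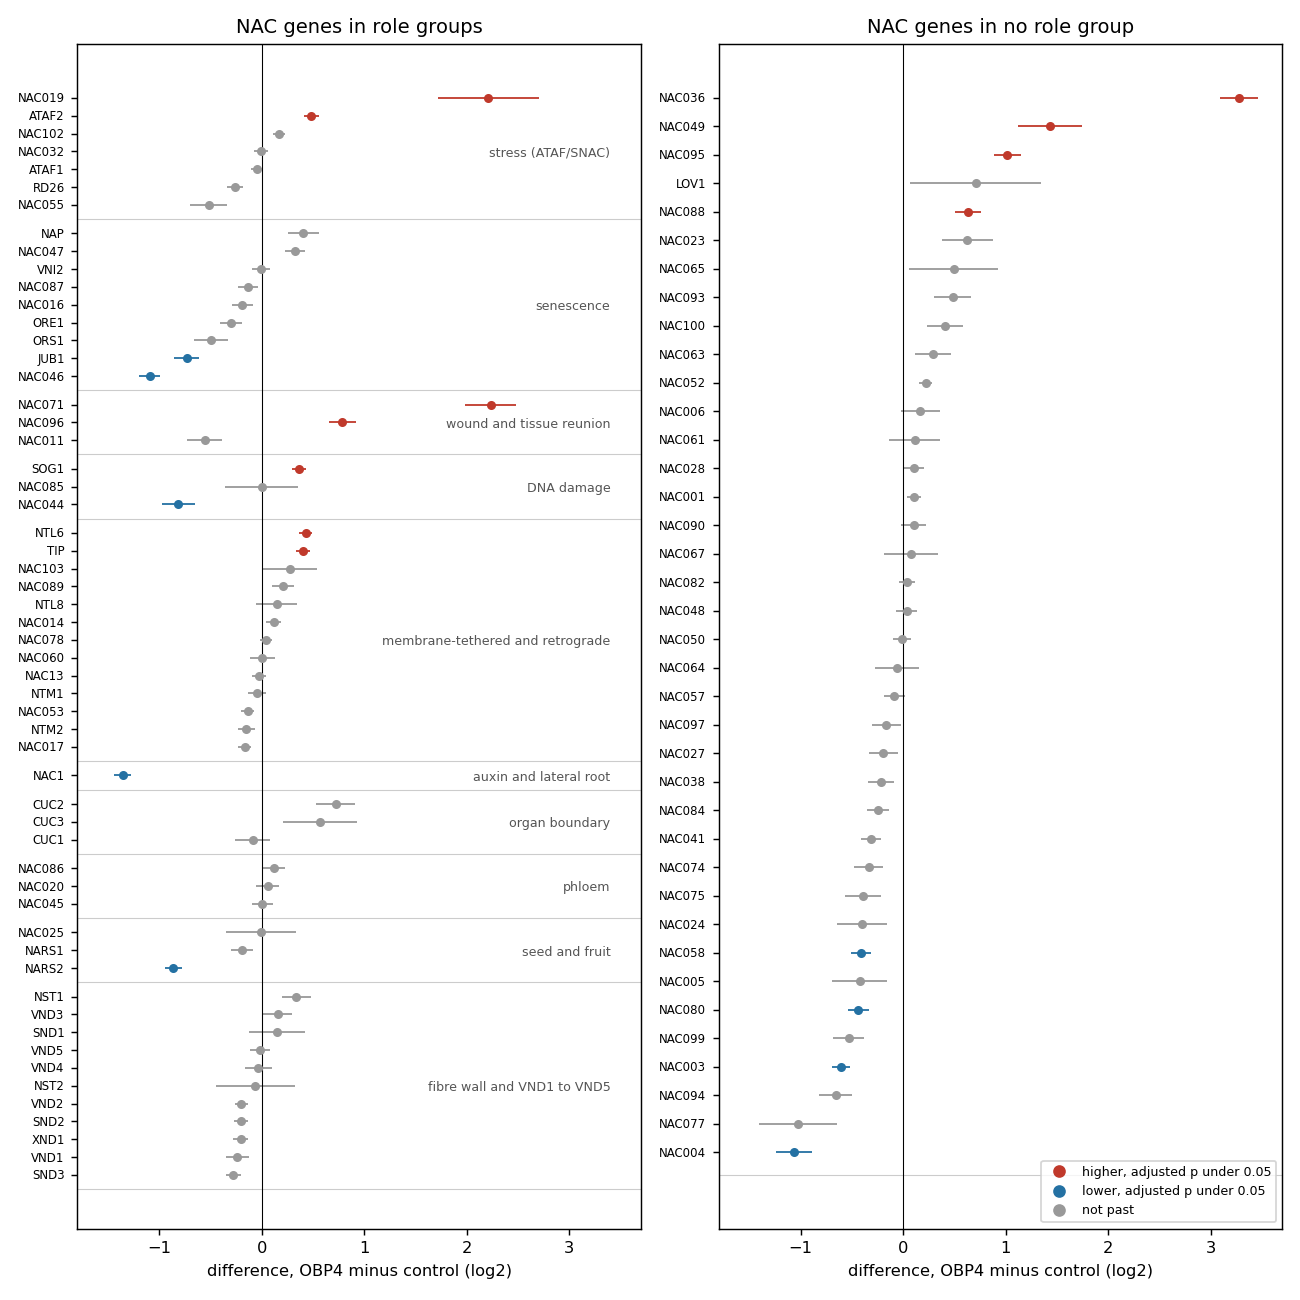
Difference, OBP4 minus control on the log2 scale (x axis), with its SE as a bar, for the 56 NAC genes in 10 role groups (left) and the 38 in none (right). Red points passed the test as higher, blue ones as lower and grey ones did not pass. The points run from -1.35 (NAC1) to 3.27 (NAC036), and the 11 fibre wall and VND genes are all grey.

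The stress NACs, of the ATAF and SNAC branches, respond to drought, salt, abscisic acid, jasmonate and pathogens. Of these 7 genes, NAC019 and ATAF2 rose (28.6% called, against 13.7% of all loci), 0 fell and 5 did not pass. NAC019, a jasmonate and abscisic acid responsive regulator of drought and defence genes, had 8.65, 9.08 and 7.78 in OBP4 roots, against 5.78, 7.15 and 5.97 in control roots. Every OBP4 array stood above every control array, although the highest control and the lowest OBP4 array lay close together. The difference was 2.21 ± 0.49 (SE), with limma's adjusted p = 0.0419. Only the fits without OBP4 replicate 3 (0.0487) and without control replicate 2 (0.0283) kept the call, while adjusted p ranged up to 0.127 in the others.

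ATAF2, a regulator of responses to wounding and pathogens, had 15.30, 15.47 and 15.47 in OBP4 roots, against 14.95, 14.91 and 14.93 in control roots. The groups were apart, near the top of the scale, with a rise of 0.48 ± 0.07 (SE; limma's adjusted p = 0.0132). With single arrays left out it passed once, without OBP4 replicate 1, and adjusted p lay between 0.0159 and 0.0584. Its close relatives ATAF1 (-0.05), NAC032 (-0.01) and NAC102 (0.17) did not pass. NAC055 (-0.52) and RD26 (-0.26), which are the nearest relatives of NAC019, did not pass either and had differences below 0. NAC019 against NAC055 was not tested as a contrast. RD26 is measured by 3 gene models, whose differences were -0.06, -0.64 and -0.08, so the locus average of -0.26 comes mainly from a single model.

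Senescence NACs govern the programmed ageing of leaves and the death of some root cells. Of 9 genes, NAC046 and JUB1 fell (22.2% called, against 13.7% of all loci), 0 rose and 7 did not pass. NAC046 promotes chlorophyll breakdown in leaves and also acts in root cap cell death and suberin formation. It had 12.72, 12.65 and 12.95 in OBP4 roots, against 13.78, 13.92 and 13.90 in control roots. All OBP4 arrays stood clearly below the controls, and the difference was -1.10 ± 0.10 (SE; limma's adjusted p = 0.00245). The call held in all 6 fits without 1 array (adjusted p at most 0.0175).

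JUB1 (NAC042), which delays leaf ageing and raises stress tolerance, had 11.52, 11.23 and 11.34 in OBP4 roots, against 12.11, 12.26 and 11.92 in control roots. Its groups did not overlap, at a difference of -0.73 ± 0.12 (SE; limma's adjusted p = 0.0178). It passed without OBP4 replicate 1 (0.0299) or control replicate 3 (0.0316), and in the other 4 fits adjusted p was at most 0.0687. The age regulators ORE1 (-0.30) and ORS1 (-0.50) and the inhibitor VNI2 (-0.01) did not pass. NAP (0.41) and NAC047 (0.32) had differences above 0, and NAC087 (-0.14) and NAC016 (-0.19) below it, and none of these passed.

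Genes that senescence and abscisic acid NACs are known to act on or with were read from a list of 12. NCED3, an enzyme of abscisic acid synthesis, rose by 1.19 ± 0.17 (SE; limma's adjusted p = 0.00942), and the other 11 did not pass. The called share of the list was 8.3%, against 13.7% of all loci. HAI1, a phosphatase gene, had a difference of 0.95 (adjusted p = 0.0574). The chlorophyll breakdown genes NYE1 (0.00), NYC1 (0.40) and PAO (-0.01) and the nuclease gene BFN1 (0.13) did not pass. NYC1 had 14.83 in OBP4 replicate 1 and 13.85 and 13.92 in OBP4 replicates 2 and 3, against 13.79, 13.82 and 13.81 in control roots. OBP4 replicate 1 is also the array with the highest photosynthesis median.

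**Figure D3:**
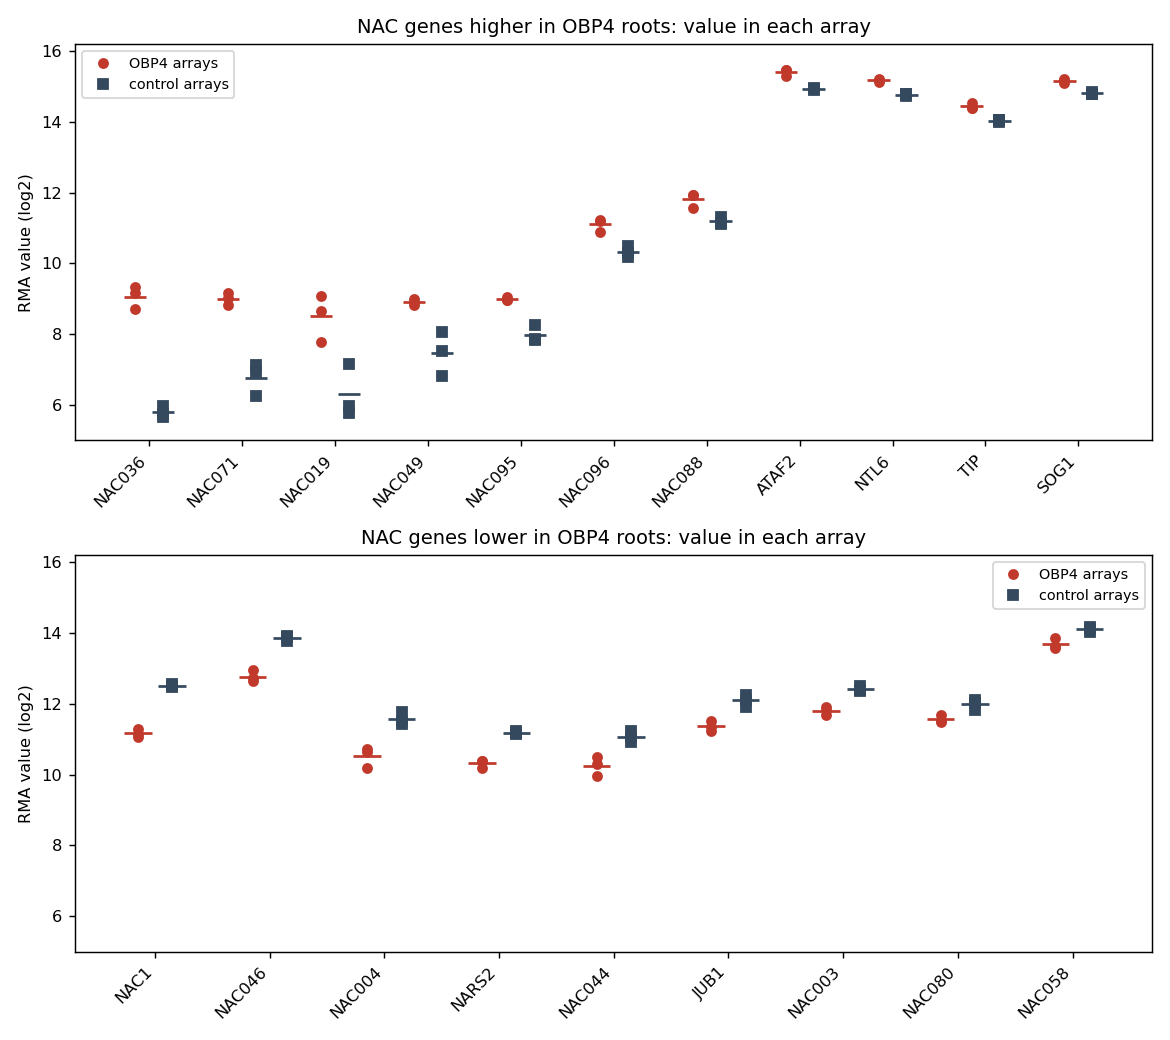
RMA value on the log2 scale (y axis) of each of the 20 called NAC genes in every array, with the 11 higher genes above and the 9 lower ones below. Red circles are the 3 OBP4 arrays, dark squares the 3 control arrays, and short lines the group means. The groups do not overlap at any of the 20 genes, and the widest scatter within a group is that of NAC019.

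NAC071 and NAC096 are known from cut Arabidopsis stems, where they act in the cell divisions that rejoin the tissue. In OBP4 roots both rose. NAC071 had 8.82, 9.01 and 9.16 in OBP4 roots, against 6.25, 7.13 and 6.92 in control roots. Its lowest OBP4 array lay well above its highest control array. The difference was 2.23 ± 0.25 (SE), or 4.69-fold, with limma's adjusted p = 0.00439, and all 6 fits without 1 array kept the call (adjusted p at most 0.0236).

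NAC096 had 10.89, 11.20 and 11.24 in OBP4 roots, against 10.48, 10.19 and 10.30 in control roots. Its groups did not overlap, at a difference of 0.78 ± 0.13 (SE; limma's adjusted p = 0.0172). It passed without OBP4 replicate 1 (0.0174) or control replicate 1 (0.0365), and the other 4 fits had adjusted p of 0.055 to 0.0682. NAC011, their relative, had 8.00, 8.02 and 8.22 in OBP4 roots, against 8.51, 8.99 and 8.41 in control roots. It lay lower in every OBP4 array, by a difference of -0.56 that did not pass (adjusted p = 0.101). The wall-loosening genes XTH19 and XTH20 are known targets of NAC071. XTH19 fell, with a difference of -0.57 ± 0.12 (SE; limma's adjusted p = 0.0361), though 5 of the 6 fits with an array left out lost the call. XTH20, with a difference of 0.23, did not pass.

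SOG1, NAC044 and NAC085 belong to the plant response to DNA damage, in which SOG1 is the master regulator and the other two arrest the cell cycle before division. SOG1 averaged 15.17 ± 0.06 in OBP4 roots and 14.80 ± 0.04 in control roots (SD, n = 3 each), a difference of 0.36 ± 0.07 (SE). NAC044 had 10.49, 9.96 and 10.30 in OBP4 roots, against 11.06, 10.93 and 11.22 in control roots, a difference of -0.82 ± 0.16 (SE). SOG1 thus rose (limma's adjusted p = 0.022) and NAC044, itself a known target of SOG1, fell (0.0284). Of the fits with an array left out, both calls held in that without OBP4 replicate 1 alone (0.0401 for SOG1 and 0.0324 for NAC044). NAC085 was dim in both groups (6.52 in each) and had a difference of 0.00.

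Of 6 other known SOG1 targets, PARP1 and XRI1 rose (33.3% called, against 13.7% of all loci), 0 fell and 4 did not pass. PARP1, which encodes a poly(ADP-ribose) polymerase, rose by 0.49 ± 0.09 (SE; limma's adjusted p = 0.0252). XRI1, an X-ray inducible gene, rose by 0.67 ± 0.14 (SE; 0.035). With an array left out, PARP1 passed in 1 fit of 6 and XRI1 in 0. The cell cycle inhibitor genes SMR5 (0.19) and SMR7 (-0.11), the repair gene BRCA1 (0.05) and the cyclin gene CYCB1;1 (-0.01) did not pass.

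Membrane-tethered NACs carry signals from the plasma membrane, the endoplasmic reticulum or the mitochondria to the nucleus. Of 13 genes in this group, which also holds the stress regulator NAC103, NTL6 and TIP rose, 0 fell and 11 did not pass. The called share was 15.4%, near the 13.7% of all loci. NTL6 (NAC062), released in cold and in pathogen attack, averaged 15.18 ± 0.04 in OBP4 roots and 14.76 ± 0.03 in control roots (SD, n = 3 each). The difference was 0.43 ± 0.06 (SE), small but far larger than the scatter of either group, with limma's adjusted p = 0.00987 and at most 0.0459 without 1 array.

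TIP, first known as a partner of a turnip crinkle virus coat protein, averaged 14.44 ± 0.08 in OBP4 roots and 14.03 ± 0.04 in control roots (SD, n = 3 each). It rose by 0.40 ± 0.07 (SE; limma's adjusted p = 0.0191), and passed in 2 of 6 fits with an array left out (adjusted p of 0.0474 to 0.072). The mitochondrial stress regulator NAC017 had 15.003, 14.95 and 15.07 in OBP4 roots, against 15.17, 15.18 and 15.17 in control roots. Every OBP4 array was below every control array, yet the difference of -0.17 did not pass (adjusted p = 0.15). NAC13 (-0.03), its partner in that response, the proteasome stress regulators NAC053 (-0.14) and NAC078 (0.04), and NAC089 (0.21), NAC014 (0.11), NTL8 (0.14), NAC060 (0.00), NTM1 (-0.05), NTM2 (-0.15) and NAC103 (0.28) did not pass.

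Of 9 known targets of NAC13 and NAC017, 4 fell, 1 rose and 4 did not pass (55.6% called, against 13.7% of all loci). SOT12, a sulfotransferase gene, had 12.78, 12.85 and 12.66 in OBP4 roots, against 13.36, 13.67 and 13.68 in control roots, and fell by 0.81 ± 0.12 on the log2 scale (SE; limma's adjusted p = 0.0107). UGT74E2 (-0.68), a glucosyltransferase gene, and CRF6 (-0.64), a cytokinin response factor, fell too. So did AOX1A (-0.36), the alternative oxidase that is the classic marker of this response. OM66, an outer mitochondrial membrane protein gene that salicylate also induces, rose. It had 14.12, 14.18 and 14.24 in OBP4 roots, against 12.91, 13.42 and 12.95 in control roots, a difference of 1.09 ± 0.15 (SE; 0.00948). AT12CYS-2 had the lowest difference of the list (-1.27), but its control arrays were far apart, at 9.34, 9.72 and 11.13, and it did not pass (adjusted p = 0.153). SOT12, CRF6 and OM66 passed in all 6 fits with an array left out, and AOX1A and UGT74E2 in 0. Of 10 proteasome subunit genes, known to be activated through NAC053 and NAC078, 0 passed limma's test (0 at an unadjusted p under 0.05), with differences of -0.05 to 0.14.

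**Figure D4:**
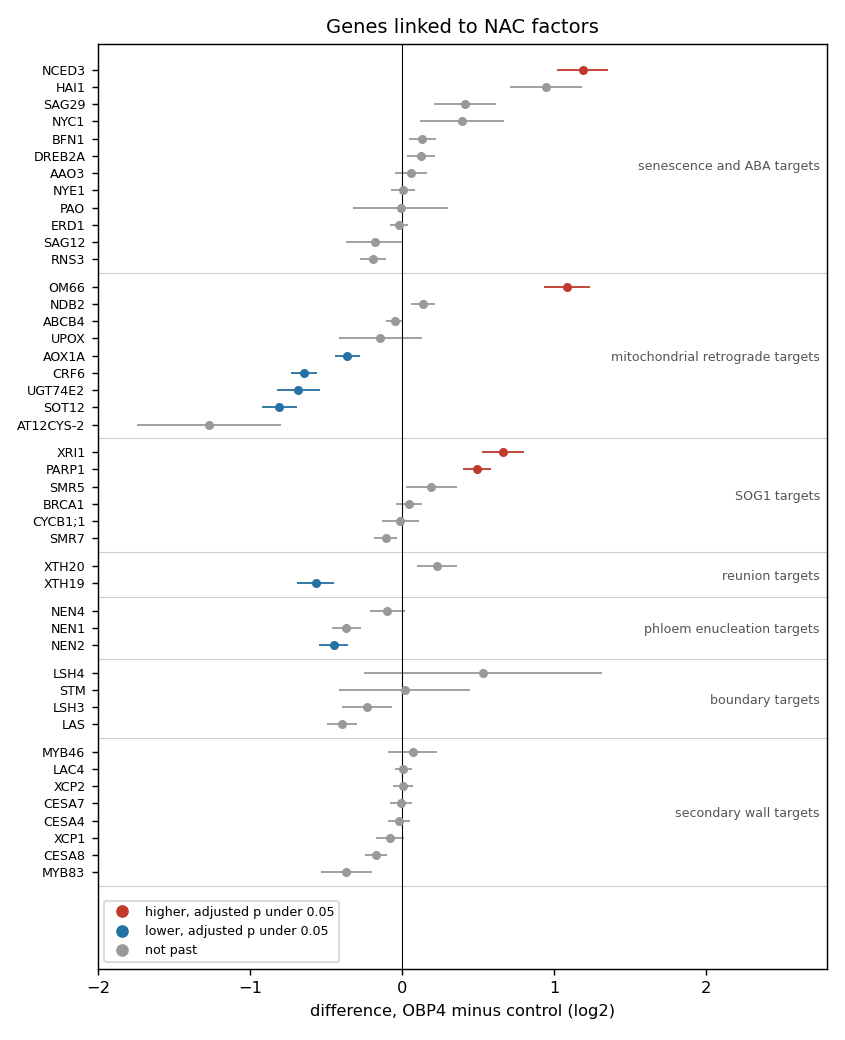
Difference, OBP4 minus control on the log2 scale (x axis), with its SE as a bar, for genes known to be linked to NAC factors, in 7 lists; the proteasome subunit genes are not drawn. Red points passed as higher, blue ones as lower and grey ones did not pass. Of the 9 mitochondrial retrograde targets 4 are blue and 1 red, and all 8 secondary wall targets are grey.

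NAC1 passes auxin signals on to lateral root formation and had the largest fall of the 94 genes. It had 11.15, 11.28 and 11.06 in OBP4 roots, against 12.52, 12.47 and 12.57 in control roots. Arrays of each group lay close together, more than 1 apart from those of the other. The difference was -1.35 ± 0.08 (SE), to 0.391 of the control level, with limma's adjusted p = 0.000776 and at most 0.00744 without 1 array. Its 2 gene models each fell, with differences of -1.46 and -1.25. NAC1 (AT1G56010) lies on chromosome 1 from 20946571 to 20949281, reverse strand. Positions are those of the array annotation, and its build was not stated in the labels or headers.

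The organ boundary genes CUC1, CUC2 and CUC3 separate neighbouring organs, and CUC1 and CUC2 also act in shoot formation from callus. By limma, 0 of the 3 passed (1, CUC2, at an unadjusted p under 0.05). CUC2 had 9.49, 9.33 and 9.44 in OBP4 roots, against 8.48, 8.51 and 9.11 in control roots. The groups did not overlap, with 1 control array standing nearer to the OBP4 arrays than the others. The difference was 0.72 ± 0.19 (SE), with limma's adjusted p = 0.0654, and it passed without control replicate 3 (0.92, adjusted p = 0.0112) and without the dimmest 25% of loci (0.0441). CUC1 (-0.09) and CUC3 (0.57) were dim in all arrays. Of 4 boundary genes linked to them, LAS (-0.40), STM (0.02), LSH3 (-0.23) and LSH4 (0.53), 0 passed (1 at an unadjusted p under 0.05). LSH4 had 9.63 in OBP4 replicate 1 and 6.76 and 7.09 in the other OBP4 arrays, against 7.11, 7.51 and 7.26 in control roots.

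Of the phloem genes NAC045, NAC086, which empties sieve elements of their nuclei with it, and NAC020, 0 passed (0 at an unadjusted p under 0.05), with differences of 0.01, 0.12 and 0.06. Among the exonuclease-domain genes that NAC045 and NAC086 control, NEN2 fell, with a difference of -0.45 ± 0.10 (SE; limma's adjusted p = 0.037). With an array left out NEN2 passed in 0 of 6 fits, and NEN1 (-0.37) and NEN4 (-0.10) did not pass with all arrays.

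NARS2 (NAM), a regulator of the seed coat, fell, and its partner NARS1 (-0.20) and the seed gene NAC025 (-0.01) did not pass. NARS2 had 10.40, 10.18 and 10.40 in OBP4 roots, against 11.13, 11.19 and 11.23 in control roots. The difference was -0.86 ± 0.09 (SE), with limma's adjusted p = 0.0033 and at most 0.022 without 1 array. The groups lay well apart.

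Fibre wall genes, VND1 to VND5 and XND1 act in the control of the lignified walls of fibres and vessels, not all in the same direction. Of these 11 genes, 0 passed limma's test, where 13.7% of all loci did. An unadjusted p under 0.05 was found at 4, all with differences below 0: SND3 (-0.28), XND1 (-0.21), SND2 (-0.20) and VND2 (-0.20). Over the whole array, 9310 of 32627 loci had limma's unadjusted p under 0.05, 5011 of them with a difference below 0. The 11 differences lay between -0.28 and 0.33 (NST1), and for SND3 the adjusted p was 0.0688. Of 8 wall genes downstream of them, including MYB46, MYB83 and the wall cellulose synthase genes CESA4, CESA7 and CESA8, 0 passed (0 at an unadjusted p under 0.05), with differences of -0.37 to 0.07. In whole roots, fewer cells of a type and less RNA per cell cannot be told apart, at this or any other gene.

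The remaining 38 genes are in no role group, since most are known by number alone. Of them 4 rose, 4 fell and 30 did not pass (21.1% called, against 13.7% of all loci). NAC036, which dwarfs plants when overexpressed, had the largest rise of the 94 genes. It had 9.33, 8.70 and 9.16 in OBP4 roots, against 5.67, 5.96 and 5.75 in control roots. Control arrays were near the lowest values the arrays give, and OBP4 arrays well above them. The difference was 3.27 ± 0.18 (SE), or 9.66-fold, with limma's adjusted p = 0.000656 and at most 0.00671 without 1 array. NAC036 (AT2G17040) lies on chromosome 2 from 7407123 to 7408270, forward strand.

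NAC049 had 8.81, 9.0 and 8.90 in OBP4 roots, against 7.52, 6.83 and 8.06 in control roots, a difference of 1.43 ± 0.31 (SE; limma's adjusted p = 0.0393). Its control arrays scatter widely, and it passed without control replicate 2 (0.0343) or 3 (0.024), with adjusted p up to 0.12 in the other 4 fits. NAC095 had 8.98, 8.95 and 9.06 in OBP4 roots, against 7.82, 8.26 and 7.85 in control roots. It rose by 1.02 ± 0.13 (SE; 0.00792), with adjusted p at most 0.0377 without 1 array. NAC088 had 11.94, 11.57 and 11.94 in OBP4 roots, against 11.30, 11.14 and 11.11 in control roots. It rose by 0.63 ± 0.13 (SE; 0.0325) and passed only without OBP4 replicate 2 (0.0179) among the 6 fits.

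NAC004 had 10.71, 10.64 and 10.19 in OBP4 roots, against 11.78, 11.43 and 11.53 in control roots. Its groups were apart, at a difference of -1.07 ± 0.17 (SE; limma's adjusted p = 0.0161). The call was lost without control replicate 1 (0.0576) or control replicate 3 (0.059). NAC003 had 11.69, 11.91 and 11.84 in OBP4 roots, against 12.36, 12.39 and 12.50 in control roots, a difference of -0.61 ± 0.09 (SE; 0.01) that passed in all 6 fits without 1 array. NAC080 had 11.48, 11.52 and 11.67 in OBP4 roots, against 11.84, 12.03 and 12.12 in control roots, and fell at the edge of the threshold (-0.44 ± 0.10 (SE), 0.0471). NAC058 did likewise (-0.41 ± 0.10 (SE), 0.0474). With an array left out NAC080 passed in 0 of 6 fits and NAC058 only without OBP4 replicate 3 (0.0355).

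LOV1, a gene of flowering time and cold response that was singled out after its values were seen, scattered widely within each group. It had 10.43, 8.21 and 8.80 in OBP4 roots, against 8.41, 7.84 and 9.06 in control roots, a difference of 0.71 ± 0.64 (SE) that did not pass (adjusted p = 0.529). OBP4 replicate 1 was highest and control replicate 3 next, and OBP4 replicate 1 also had the highest photosynthesis median. Just outside the threshold lay NAC094 (-0.66, limma's adjusted p = 0.0554), then CUC2 and SND3. Among the calls, NAC058 (0.0474), NAC080 (0.0471) and NAC019 (0.0419) stood nearest to it inside.

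Many NAC genes stand next to each other in the genome. Within 20 kb of another member lay 29 of the 94, in 19 pairs, of which 7 pairs held a called gene and 2 held a called gene at both places. Called were 7 of these 29 genes, where 20 of the 94 (21.3%) and 13.7% of all loci were called. Whether neighbours change together more often than other genes was not tested. NAC003 and NAC004, 4.53 kb apart on the reverse strand of chromosome 1, both fell. NAC005, 1.17 kb from NAC004, did not pass (-0.42) and was dim in both groups. NARS2 and NAC019, 6.46 kb apart on the reverse strand of chromosome 1 (19688957 to 19690542 and 19697004 to 19698482), changed in opposite directions, with differences of -0.86 and 2.21. NAC046 fell, while NAC047, 6.36 kb away on chromosome 3, had a difference of 0.32 that did not pass. NAC049 rose beside NAC048 (0.04), 1.04 kb away on the other strand, and NAC088 rose beside NAC087 (-0.14), 14.83 kb away. Whether array probes tell such neighbours of like sequence apart was not analysed here.

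**Figure D5:**
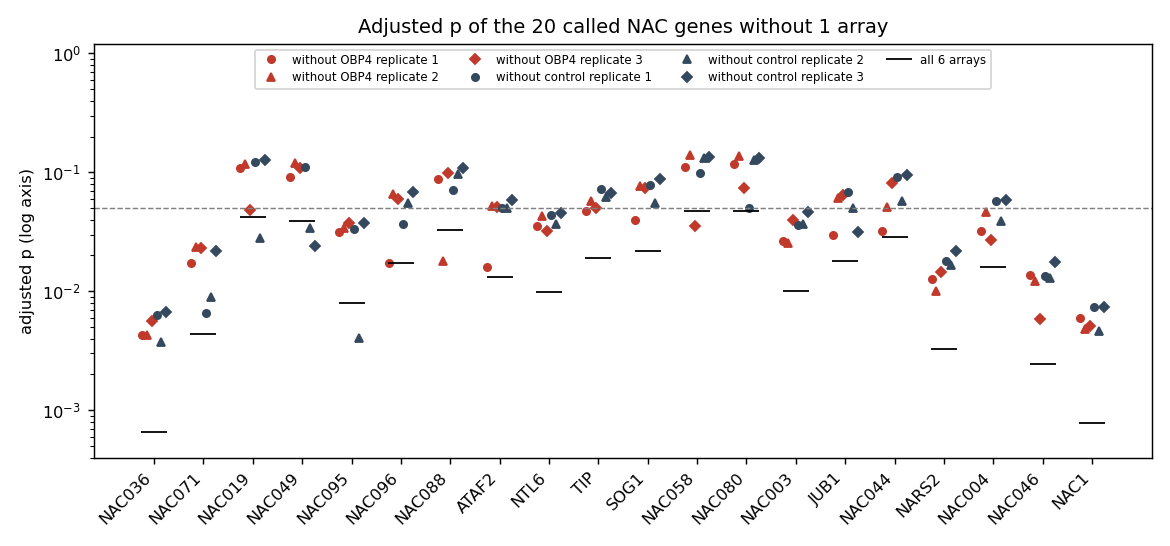
Limma's adjusted p (y axis, log scale) of the 20 called NAC genes (x axis, from the largest rise at the left to the largest fall at the right) in the fits without 1 array. Red symbols leave out an OBP4 array, dark ones a control array, black bars use all 6 arrays, and the dashed line is 0.05. NAC036, NAC071, NAC095, NTL6, NAC003, NARS2, NAC046 and NAC1 stay below the line in all 6 fits.

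Of the 20 called genes, 8 passed in all 6 fits without 1 array: NAC036, NAC071, NAC095 and NTL6 as higher, and NAC1, NAC046, NARS2 and NAC003 as lower. NAC004 passed in 4, and the other 11 in 2 or fewer. The direction of the difference was kept by all 20 genes in these 6 fits. It could not have turned, since the groups did not overlap at any of the 20. Of the 15 members measured by more than 1 gene model, NAC050 and NTM1 had models with differences of opposite sign, and neither was called.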

How the data were processed

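The deposited tables, 1 for each array, hold log2 values of 37118 gene models, made by the authors with RMA, a method of background correction, array normalization and probe summary, as the names of the deposited tables say. Software, settings and genome build: not given in the sources used here. A second deposited table of log2 values under the same sample names, its normalization not stated, served as an alternative only. Gene models of a locus were averaged (32627 loci, 3602 with more than 1 model). Symbols come from the array annotation, the table of the TAIR10.1 assembly (all 94 members matched) or common use.

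OBP4 and control arrays (3 each) were compared over all loci in limma 3.58.1 (lmFit, then eBayes; R 4.3.3). Tests were two-sided, p-values were adjusted by Benjamini-Hochberg and the threshold was 0.05, and the fit was tested on simulated data. The array number limits the precision. P-values weigh a difference against the spread between arrays of the same group, which came from separate experiments, moderated over all loci. They are not known to cover the spread between independent transgenic lines, whose number is not stated. No filter on dim loci was applied. Fits without 1 array leave 2 in a group.

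Members and gene lists were chosen with earlier results of these data known. The rule for named genes was OBP4, every called member (array values for up to 8 in each direction, by size), any member of a role group, up to 3 called genes per linked list, neighbours within 20 kb with a call, and up to 3 members just outside the threshold. UGT74E2 and AOX1A complete a count, and genes that did not pass are named as examples, chosen after their values were seen. Pairs by protein sequence were not analysed here, and 1 gene of the SOG1 list is not reported here. Alternatives were quantile normalization, median centring, array weights, a filter on the dimmest 25% or 50% of loci, the trend and robust options of eBayes, the replicate block, the brightest row per locus, an adjusted p of 0.01, a minimum difference of 1, the second table and leaving out each array. The photosynthesis covariate and the reading of symbols in capitals were alternatives chosen after seeing the data. Plots used matplotlib 3.10.9.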

Additional observations from a re-analysis of the deposited data

Results flagged for a closer look

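In the second deposited table, on which no comparison above rests, limma called 11 NAC genes higher and 2 lower under that table's own labels (13.8% of the 94, where 5.55% of all loci were called). OBP4 itself differed there by 0.01 ± 0.09 (SE; limma's adjusted p = 0.98), so the induced gene did not separate the labelled groups. Of the 20 NAC genes called in the arrays, 12 had a difference of the same sign in that table and 8 of the opposite sign. Called in both were 5 genes, of which NAC036 (1.62), NAC049 (0.81) and NAC096 (0.81) kept their direction, while NAC003 (1.503) and JUB1 (1.94) were called higher there and lower in the arrays. The senescence genes NAP (2.40), NAC047 (1.53) and ORE1 (1.02), which did not pass in the arrays, were called higher there, as was NAC048 (2.45). The median over gene models was 11.84 in all 6 columns. Its values run over a log2 range, and how it was normalized is unknown.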

How the results depend on the processing

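The 11 higher and 9 lower calls stayed within 1.5 times these counts under quantile normalization, median centring, array weights, the brightest row per locus, leaving out the dimmest 25% of loci and the photosynthesis covariate. Leaving out the dimmest 50% of loci, which keeps 49 of the 94 genes, gave 7 higher and 14 lower (42.9% called, against 29.2% of all loci). Trend and robust settings gave 14 lower, with 14 higher (29.8%, against 18.6% of all loci). An adjusted p of 0.01 gave 4 higher and 3 lower (7.4% of the 94), and the share of all loci at that threshold was not analysed. A minimum difference of 1 gave 5 and 3 (8.5%, against 4.78% of all loci). Symbols in capitals only gave 3 and 5 of 46 genes (17.4%, against 13.7% of all loci). The second table gave 2 lower, with 11 higher (13.8%, against 5.55% of all loci). Without 1 array, higher calls ranged from 5 to 8 and lower calls from 4 to 7. With the replicate number as a block, 3 were higher (NAC036, NAC071 and NAC019) and 3 lower (NAC1, NAC046 and NARS2), a share of 6.4% against 5.22% of all loci, so the NAC genes then lay near the background. Same-numbered arrays deviated together at -0.197, 0.093 and -0.17, and arrays of unlike numbers at -0.272 to 0.36. With 3 arrays in a group these values cannot show whether the numbers pair the samples. The block was kept as an alternative only. Single genes that lost their call under normalization, weights or covariate were NAC049, NAC058, NAC080, NAC019 and NAC088. The sign turned for 8 called genes, only in the second table: NAC003 (1.503), SOG1 (-0.11), JUB1 (1.94), NAC044 (0.007), NAC046 (0.063), NAC058 (0.14), NAC088 (-0.36) and NAC095 (-0.21). The NAC median of -0.01 became 0.01 under median centring, too close to 0 for a direction. Apart from effects the construction of an alternative shows, the cause was not tested. Values near the top of the scale (OBP4, ATAF2, NTL6, SOG1) limit how exactly the size of a change is known. So do means under 8 in control roots (NAC036, NAC071, NAC019, NAC049, NAC095).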

Other observations

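The microRNA miR164 is known to cut transcripts of 6 of the NAC genes, a group chosen after the values were seen. Their differences between OBP4 and control roots were -1.35 for NAC1, -0.44 for NAC080, -0.30 for ORE1, -0.09 for CUC1, 0.41 for NAC100 and 0.72 for CUC2. NAC1 and NAC080 passed limma's test as lower and the other 4 did not pass. Of all loci, 13.7% were called, 8.48% as lower. With an array left out NAC080 passed in 0 of 6 fits. NAC100 had 11.60, 11.997 and 12.13 in OBP4 roots, against 11.60, 11.62 and 11.29 in control roots (adjusted p = 0.198).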
